A study of Mus musculus with 9 samples.

Results

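The comparison set ventricles of mice kept on a high-fat diet with L-NAME (group Ctrl_HF, 3 libraries) against ventricles of mice on normal chow (group Ctrl, 3 libraries). Neither group carried the MGTH2A transgene. The members were all genes expressed highly enough to be tested, which were 12670 of the 49585 rows of the deposited table, in 6 of the 9 libraries of the series. The 3 libraries of transgenic model animals (TTg_HF) were not compared here. They entered the fit to share 1 estimate of the spread, and the number of calls depended on them. All mice were male, on a hybrid of C57BL/6 and ICR, and both groups were Tcf21iCre/R26 tdTomato, a Cre line driven by a gene of the fibroblast lineage with a fluorescent reporter. Both received tamoxifen at 2 mg per day for 5 days in week 5, and diet and L-NAME lasted 15 weeks in the model group. The diet drew 60% of its kilocalories from fat, and L-NAME, an inhibitor of the nitric oxide synthases, was dissolved at 1.0 g/L in the drinking water. In the labels the treatment stands for HFpEF, heart failure in which the ejection fraction is preserved. Diet and L-NAME were always given together, so their shares in a difference cannot be told apart, and a control without Cre or tamoxifen was not analysed here.

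The working ventricle draws most of its energy from fatty acids and the rest from glucose, lactate, ketone bodies and amino acids. Dietary fat shifts that choice through fatty acid sensing nuclear receptors, and blockade of nitric oxide synthesis raises vascular tone and pressure load. The ventricle is a mixture in which cardiomyocytes hold most of the RNA and endothelial cells, fibroblasts, mural cells and macrophages hold the rest.

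RNA was depleted of ribosomal RNA and made into directional libraries from ventricles whose atria and valves had been removed. The 6 libraries held 7061412 to 8852515 counts each, so that 1 count was worth 0.107 to 0.148 CPM, the count scaled to a common library total. The ventricular light chain gene Myl2 lay between 3268 and 4347 CPM, while the atrial light chain gene Myl7 did not exceed 7.18 CPM and the atrial gene Sln did not exceed 3.0 CPM. Replicates are numbered in the labels with no word on whether animals were pooled or shared, so p-values measure only the spread between libraries, which may be technical. On the first principal component of the 6 libraries, with 41.5% of the variance, Ctrl lay at -17.1, -29.4 and -19.8 and Ctrl_HF at 2.33, 43 and 21. On the second, with 20.2%, Ctrl_HF replicate 1 stood apart at 37.5, and the other 5 libraries lay between -13.2 and 3.69. Each Ctrl_HF library also carried gene groups of its own, which are described after the shared changes.

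Genes of fuel use, of membrane channels, of the Atf4 stress response and of myeloid cells were among those that changed in the ventricle. Lists of organelles and common cell machinery held few genes past the test. Of 12670 genes, 227 rose (1.79%) and 231 fell (1.82%), 3.61% in all, at an adjusted p under 0.05 by the edgeR quasi-likelihood test. The changes were mostly modest: the median absolute log2 fold change of the 458 genes was 0.73, 150 exceeded 1 and 96 lay under 0.5. In all 458 the 3 libraries of one group lay apart from the 3 of the other. Where a called gene is said below to lie apart, this adds nothing to its call. Over all tested genes the groups lay apart with Ctrl_HF higher in 1455 (11.5%) and with Ctrl_HF lower in 1493 (11.8%). The count leaned on single libraries. It was 85 without Ctrl replicate 2, 1122 without Ctrl_HF replicate 1, and 126 when the 6 libraries were fitted alone. Without TTg_HF replicate 2, which is not in the comparison, it was 224. Of 290 genes named from the called ones, 53 passed under every alternative that gave a value, and these are marked below as stable. The others lost the call under at least 1 alternative, 227 of them without Ctrl replicate 2. In bulk RNA, fewer cells of a type and less RNA per cell cannot be told apart, which holds for every gene below that one cell type dominates.

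**Figure D1:**
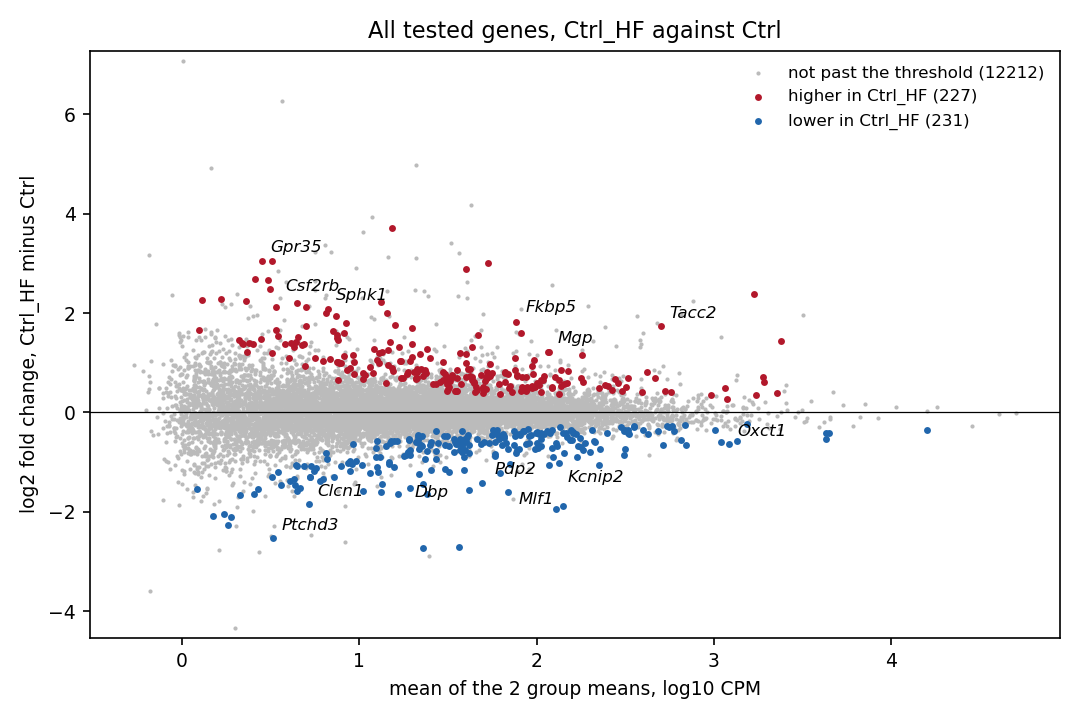
Each dot is 1 of the 12670 tested genes, with its mean level on the x axis (log10 CPM, mean of both group means) and its log2 fold change, Ctrl_HF minus Ctrl, on the y axis. Red marks the 227 genes that rose and blue the 231 that fell at an adjusted p under 0.05, and several large fold changes at low level are grey because they did not pass.

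Gene lists of pathways, compartments and cell types were used to sort the genes, and their members overlap. Of the 458 called genes 214 (46.7%) belonged to at least 1 list, against 3767 (29.7%) of the tested genes. A list is described below by the number of its members that rose or fell, beside the 1.79% and 1.82% of all tested genes, and by its median log2 fold change, beside the median of 0.01 over all genes. Members that lay apart upward or downward are set beside the 11.5% and 11.8% of all tested genes. A value that follows a gene in brackets with no unit is its log2 fold change, Ctrl_HF minus Ctrl.

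**Figure D2:**
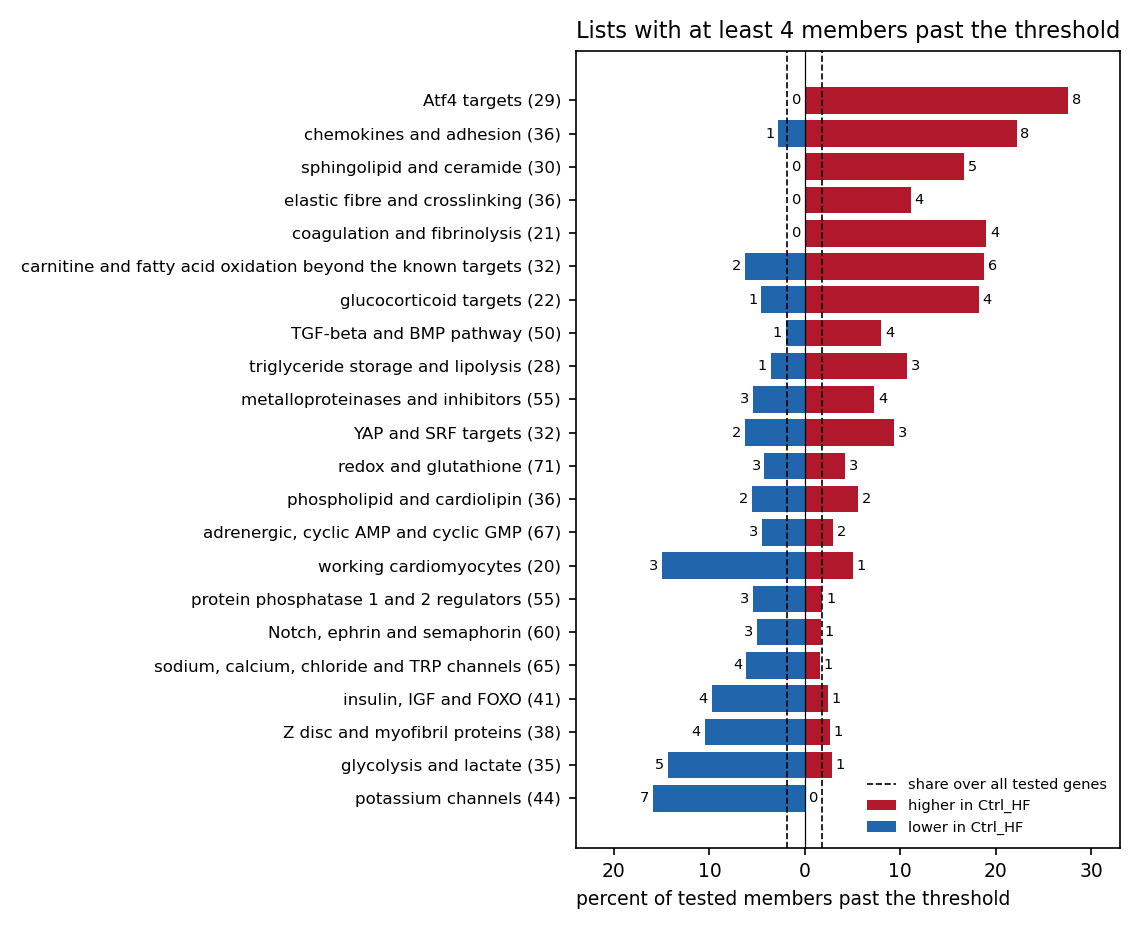
Bars give the percent of a list's tested members that rose (red, right) or fell (blue, left) in Ctrl_HF against Ctrl, for lists with at least 4 such members, with the number of members at the end of each bar and the number tested in brackets. Dashed lines mark 1.79% and 1.82%, the shares over all tested genes. Among members past the test, more rose than fell for targets of Atf4, chemokines and adhesion, and sphingolipid genes. More fell than rose for potassium channels, glycolysis and Z disc proteins, although the median over all Z disc members was 0.16.

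The gene that commits ketone bodies to oxidation fell. Oxct1, a transferase of the mitochondrial matrix, was at 1496, 1488 and 1479 CPM in Ctrl and 926, 932 and 997 CPM in Ctrl_HF (log2 fold change -0.64, SE 0.08, adjusted p = 0.00484, stable). The highest model library lay well below the lowest chow library, and the adjusted p was at most 0.0296 under the 19 alternatives. The gene lies on chromosome 15 at 4026383 to 4155344 on the plus strand of GRCm38, in the GENCODE vM21 annotation.

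A few lipid droplet genes changed. Of 28 genes of triglyceride storage and lipolysis 3 rose and 1 fell, 8 lay apart upward (28.6%) and 4 downward (14.3%), and the median was 0.10. Cidea, a lipid droplet protein that enlarges droplets, was at 14.6, 13.5 and 17.6 CPM in Ctrl and 24.5, 30.9 and 25.2 CPM in Ctrl_HF (log2 fold change 0.82, SE 0.14, adjusted p = 0.0122). Plin5, the perilipin of oxidative muscle, was at 106, 96.1 and 92.2 CPM in Ctrl and 177, 124 and 227 CPM in Ctrl_HF (log2 fold change 0.85, SE 0.18, adjusted p = 0.0348) and passed in 10 of 19 alternatives. Pnpla2, adipose triglyceride lipase, rose (0.43, adjusted p = 0.0348), and Fitm1, which buds droplets from the endoplasmic reticulum in muscle, fell from 69.8, 64.8 and 76.9 to 44.2, 46.4 and 49.6 CPM (log2 fold change -0.59, SE 0.10, adjusted p = 0.0129). The model libraries held all of Cidea's 3 highest and all of Fitm1's 3 lowest values. Without Ctrl replicate 2, and likewise without Ctrl replicate 3, 1 of these 4 calls was left. Cidea also marks brown adipocytes, and of the 16 adipocyte markers 10 were too low to be tested, among them Adipoq, Plin1, Lep and Ucp1. Of the 6 tested markers 5 were higher than chow and 1 lower, and 2 lay apart upward (33.3%, against 11.5% of all genes). Their summed level was 613 to 782 CPM in Ctrl and 859 to 926 CPM in Ctrl_HF. The part of adipocytes in the droplet genes was not tested.

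Dbi, the acyl-CoA binding protein, rose from 62.2, 51.7 and 59.9 to 89.3, 108 and 92.2 CPM (log2 fold change 0.74, SE 0.10, adjusted p = 0.0068), and Acsf2, an acyl-CoA synthetase of mitochondria, from 25.9, 34.4 and 28.4 to 49.4, 56.6 and 57.2 CPM (log2 fold change 0.88, SE 0.12, adjusted p = 0.0068), both stable. Pex11a, which drives division of peroxisomes, rose from 17.3, 16.1 and 16.9 to 26.4, 37.4 and 26.8 CPM (log2 fold change 0.85, SE 0.15, adjusted p = 0.0137). The other 18 of 19 peroxisome biogenesis genes did not pass. Of the 19 genes 5 lay apart downward (26.3%) and 2 upward (10.5%), and the list's median was -0.11. Catalase, Cat, the peroxisomal peroxide scavenger, rose from 217, 222 and 204 to 403, 307 and 312 CPM (log2 fold change 0.67, SE 0.11, adjusted p = 0.012) and was 1 of 2 risers among 23 peroxisomal enzymes, whose median was 0.01. Of 32 genes of the carnitine shuttle and fatty acid oxidation 6 rose (18.8%) and 2 fell (6.25%). The list left out some known targets of the fatty acid receptors such as Pdk4 and Ucp3. In that list 14 genes lay apart upward (43.8%) and 5 downward (15.6%), and 11 were lower than chow. The median was 0.12, and the summed level was 11920 to 12950 CPM in Ctrl and 13940 to 15050 CPM in Ctrl_HF. The fallers were Acadsb (-0.65, adjusted p = 0.0068, stable), which acts on short branched acyl groups from isoleucine, and Echs1 (-0.38, adjusted p = 0.0205), the short-chain enoyl-CoA hydratase. The fatty acid transporter gene Cd36 was at 2120.0, 1910.0 and 1790.0 CPM in Ctrl and 2401, 2300.0 and 2969 CPM in Ctrl_HF (0.40, adjusted p = 0.0511), short of the threshold.

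Ceramide is built from serine and palmitoyl-CoA, turned into sphingomyelin, or split to sphingosine, whose phosphorylated form is an exported signal. Of 30 tested genes 5 rose (16.7%) and 0 fell, although 11 members were lower than chow and the list's median was 0.05. Sptlc2, a catalytic subunit of serine palmitoyltransferase, the first step, was at 34.2, 26.7 and 29.4 CPM in Ctrl and 45.05, 55.1 and 47.7 CPM in Ctrl_HF (log2 fold change 0.71, SE 0.12, adjusted p = 0.0139). Cers6, a ceramide synthase that prefers palmitoyl-CoA, was at 12.2, 11.2 and 8.91 CPM in Ctrl and 15.6, 23.5 and 20.6 CPM in Ctrl_HF (log2 fold change 0.89, SE 0.17, adjusted p = 0.0224). For both, the lowest model library lay above the highest chow library.

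Sgms1, sphingomyelin synthase of the Golgi, rose from 83.3, 72.1 and 63.7 to 103, 105 and 104 CPM (log2 fold change 0.51, SE 0.10, adjusted p = 0.023). Acer2, the Golgi ceramidase that yields sphingosine, rose from 44.9, 56.6 and 44.3 to 69.6, 83.6 and 101 CPM (log2 fold change 0.80, SE 0.15, adjusted p = 0.0193). Sphk1, sphingosine kinase, was at 3.58, 1.73 and 2.23 CPM in Ctrl and 6.16, 18.4 and 7.76 CPM in Ctrl_HF (log2 fold change 2.09, SE 0.44, adjusted p = 0.0314), with the rise largest in Ctrl_HF replicate 2. Spns2, the exporter of sphingosine-1-phosphate, which was not on the list and was named after its values were seen, rose from 11.9, 11.3 and 10.6 to 17.8, 25.1 and 26.3 CPM (log2 fold change 1.04, SE 0.17, adjusted p = 0.0122). Not all steps moved: Sptlc1, the partner subunit of Sptlc2, was at 20.1, 19.8 and 20.2 CPM in Ctrl and 16.2, 24.7 and 21.2 CPM in Ctrl_HF (adjusted p = 0.895), and Cers4, another ceramide synthase of the heart, was at 33.1, 44.5 and 44.9 CPM in Ctrl and 33, 22.2 and 31.9 CPM in Ctrl_HF (-0.49, adjusted p = 0.114). The 5 calls fell to 0 without Ctrl replicate 3 and to 1 without Ctrl replicate 2, without Ctrl_HF replicate 3 or with the 6 libraries alone, and Sptlc2 passed in 17 of 19 alternatives.

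Targets of Atf4, the transcription factor of the amino acid and mitochondrial stress response, held the largest share of risers among the lists with at least 4 genes past the test. Of 29 tested targets 8 rose (27.6%) and 0 fell, with a median log2 fold change of 0.30. By library the list's median log2 ratio to chow was 0.44, 0.50 and 0.05 in Ctrl_HF replicates 1, 2 and 3. Atf4 itself was at 75.6, 54.98 and 62.6 CPM in Ctrl and 122, 148 and 98.3 CPM in Ctrl_HF (log2 fold change 0.93, SE 0.16, adjusted p = 0.0154). Asns, asparagine synthetase, was at 1.36, 1.85 and 2.11 CPM in Ctrl and 5.07, 4.83 and 5.56 CPM in Ctrl_HF (log2 fold change 1.53, SE 0.27, adjusted p = 0.0156), with no overlap between the groups. The promoter of Asns is shown because it was the single window among those of the called targets that held the amino acid response element, searched as TGATGNAA on both strands.

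Asns: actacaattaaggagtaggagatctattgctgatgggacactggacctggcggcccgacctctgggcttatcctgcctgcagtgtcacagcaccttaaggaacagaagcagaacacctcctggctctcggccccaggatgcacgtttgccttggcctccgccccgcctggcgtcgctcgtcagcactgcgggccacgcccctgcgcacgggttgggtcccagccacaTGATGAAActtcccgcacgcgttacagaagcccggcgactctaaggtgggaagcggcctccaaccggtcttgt

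This RefSeq window of GRCm38.p6, chr6:7693160-7693459 on the minus strand, covers 250 bases before the start of transcription and 50 after it, and the capitals mark the match, which begins 23 bases before the start. A match was present in 2.16% of the 12467 windows of tested genes, in 1 of the 12 windows of called targets and in 7 of the 22 windows of targets that did not pass. The presence of these letters is a description of the window.

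Serine and one-carbon enzymes were among the same targets. Mthfd2, the mitochondrial folate enzyme, was at 4.45, 2.19 and 2.58 CPM in Ctrl and 13.01, 9.8 and 12.3 CPM in Ctrl_HF (log2 fold change 1.93, SE 0.32, adjusted p = 0.0126), and Psat1, the transaminase of serine synthesis, at 2.6, 1.85 and 2.46 CPM in Ctrl and 5.07, 8.48 and 9.62 CPM in Ctrl_HF (log2 fold change 1.75, SE 0.30, adjusted p = 0.0131). Shmt1, the cytosolic serine hydroxymethyltransferase, fell from 10.3, 14.4 and 11.8 to 5.2, 7.02 and 5.68 CPM (log2 fold change -1.03, SE 0.19, adjusted p = 0.0197). Over the 23 tested genes of serine, glycine and one-carbon metabolism 2 rose and 1 fell, with a median of 0.04. Phgdh, the first enzyme of serine synthesis, was at 2.35, 1.27 and 1.41 CPM in Ctrl and 1.92, 2.05 and 1.74 CPM in Ctrl_HF (adjusted p = 0.81) and did not pass. Gdf15, a secreted stress cytokine (1.64), Atf5, a related factor of the mitochondrial stress response (0.79), Cebpg, a partner of Atf4 on DNA (0.46), and Slc7a1, a cationic amino acid transporter (0.52), made up the rest. Ddit3 (0.14), Trib3 (0.49) and Chac1 (-0.18), targets tied to endoplasmic reticulum stress, had adjusted p of 0.727, 0.475 and 0.876. Of 25 genes of protein folding in the endoplasmic reticulum and its unfolded protein response, 0 rose and 0 fell. In that list 20 genes were higher than chow, and the median was 0.13. There 3 genes lay apart upward (12%, against 11.5% of all genes) and 1 downward (4%, against 11.8%). The 8 calls fell to 0 without Ctrl replicate 2 and to 2 without Ctrl replicate 3, and rose to 9 without Ctrl_HF replicate 1.

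Some enzymes of amino acid breakdown fell. Outside the branched chains, 3 of 37 tested genes fell and 0 rose, 8 were higher than chow, 14 lay apart downward (37.8%, against 11.8% of all genes), and the median was -0.24. Gcdh, glutaryl-CoA dehydrogenase of lysine and tryptophan breakdown, fell from 45.1, 53.2 and 46.8 to 25.2, 28.8 and 29.6 CPM (log2 fold change -0.79, SE 0.11, adjusted p = 0.0068, stable). Gcat, of threonine breakdown, fell from 8.53, 8.66 and 5.86 to 3.42, 3.07 and 3.59 CPM (log2 fold change -1.18, SE 0.23, adjusted p = 0.0233), and Abat, the GABA transaminase, was the remaining one. Mut, the mutase that carries propionate carbon into the citric acid cycle, fell from 159, 208 and 196 to 119, 127 and 137 CPM (log2 fold change -0.56, SE 0.12, adjusted p = 0.0281), and Pcca, a subunit of propionyl-CoA carboxylase upstream of it, from 99.6, 95.05 and 90.05 to 76.8, 71.9 and 70.4 CPM (log2 fold change -0.38, SE 0.09, adjusted p = 0.0476). Bckdhb, a subunit of the branched-chain ketoacid dehydrogenase, fell from 52.8, 48.97 and 47.6 to 29.2, 30.9 and 28.8 CPM (log2 fold change -0.75, SE 0.12, adjusted p = 0.0104, stable), and Ivd, of leucine breakdown, from 419, 399.6 and 379.9 to 226, 219 and 219 CPM (log2 fold change -0.85, SE 0.13, adjusted p = 0.0104, stable). Mut, Pcca, Bckdhb and Ivd were in no list and were named after their values were seen, as were Oxct1, Dbi and Pdp2. The branched-chain and propionate routes were not counted as a list, and Aldh6a1, of valine breakdown, was at 128, 160.1 and 153 CPM in Ctrl and 134, 95.2 and 102 CPM in Ctrl_HF (-0.41, adjusted p = 0.126) and did not pass.

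Of 35 genes of glycolysis and lactate 5 fell (14.3%) and 1 rose, and the median was -0.06. Among the transporters on the list, Slc2a1 and Slc16a1, the broadly expressed carriers of glucose and lactate, had log2 fold changes of 0.05 and -0.06 (adjusted p = 0.92 and 0.791) and did not pass. Slc2a12, a glucose transporter of muscle, was at 11.7, 26.9 and 20.3 CPM in Ctrl and 8.49, 5.26 and 7.76 CPM in Ctrl_HF (log2 fold change -1.45, SE 0.29, adjusted p = 0.0285), and Slc16a7, a transporter of lactate, pyruvate and ketone bodies, at 24.5, 17.3 and 11.6 CPM in Ctrl and 7.94, 7.17 and 8.11 CPM in Ctrl_HF (log2 fold change -1.2, SE 0.24, adjusted p = 0.0249). Fbp2, the muscle fructose bisphosphatase that opposes glycolysis, rose from 16.6, 13.9 and 14.3 to 25.7, 30.3 and 26.2 CPM (log2 fold change 0.88, SE 0.12, adjusted p = 0.0068, stable). The groups did not overlap for any of these 3 genes. Pdp2, a phosphatase that activates pyruvate dehydrogenase, fell from 56.6, 83.04 and 74.1 to 30.8, 20.8 and 28.6 CPM (log2 fold change -1.41, SE 0.20, adjusted p = 0.0086, stable), and Pcx, pyruvate carboxylase, from 43.1, 48.5 and 46.8 to 32.04, 25.6 and 24.6 CPM (log2 fold change -0.75, SE 0.12, adjusted p = 0.0103). Of 22 genes of creatine and adenylate kinases 3 fell: Ckb, the brain-type creatine kinase (-0.59), Nt5c1a, which turns AMP into adenosine (-0.47), and Ak1, adenylate kinase (-0.28). Without Ctrl replicate 2 the calls in glycolysis fell from 6 to 1, and those in creatine and adenylate kinases from 3 to 0.

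Redox genes moved both ways. Of 71 tested genes 3 rose and 3 fell, and the median was -0.01. Srxn1, which restores peroxiredoxins, was at 32.5, 19.5 and 21.9 CPM in Ctrl and 70.9, 65.5 and 47.8 CPM in Ctrl_HF (log2 fold change 1.32, SE 0.20, adjusted p = 0.0113). Hmox1, heme oxygenase, was at 9.15, 7.04 and 7.27 CPM in Ctrl and 25.6, 15.9 and 12.2 CPM in Ctrl_HF (log2 fold change 1.19, SE 0.25, adjusted p = 0.0294), highest in Ctrl_HF replicate 1. Gstk1, a glutathione transferase of mitochondria and peroxisomes, fell from 45.1, 47.5 and 38.3 to 25.7, 24.4 and 25.02 CPM (log2 fold change -0.80, SE 0.12, adjusted p = 0.00834, stable). Gstp2 (-1.3) and Gstm4 (-0.63) fell too, but they share sequence with neighbouring family members and their counts are uncertain. Nnt, the proton-driven enzyme that makes mitochondrial NADPH, was at 1175, 1146 and 1096 CPM in Ctrl and 993, 869.5 and 809 CPM in Ctrl_HF (log2 fold change -0.36, SE 0.08, adjusted p = 0.0402), a call held in 9 of 19 alternatives. Of the 6 redox calls 1 was left without Ctrl replicate 3, and 2 were left without Ctrl replicate 2.

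Agtr1a, the main angiotensin II receptor, was at 35.97, 39.7 and 30.02 CPM in Ctrl and 18.1, 14.2 and 14.9 CPM in Ctrl_HF (log2 fold change -1.16, SE 0.18, adjusted p = 0.0086, stable). Every model library held less than the lowest chow library, and Agtr1a was the 1 gene of 20 in the renin, endothelin and kinin list to pass. Ace, the converting enzyme, was at 83.7, 115 and 111 CPM in Ctrl and 103, 105 and 102 CPM in Ctrl_HF (adjusted p = 0.999). Nos3, the endothelial synthase that L-NAME inhibits, was at 43.6, 29.8 and 35.4 CPM in Ctrl and 40.9, 42.5 and 44.7 CPM in Ctrl_HF (0.24, adjusted p = 0.352). Prkg1, the cyclic GMP dependent kinase downstream of nitric oxide, was at 23.5, 22.4 and 19.5 CPM in Ctrl and 30.5, 34.4 and 31.97 CPM in Ctrl_HF (log2 fold change 0.57, SE 0.11, adjusted p = 0.0249).

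Of 67 genes of adrenergic, cyclic AMP and cyclic GMP signalling 2 rose and 3 fell. Akap2, which anchors protein kinase A, rose from 9.64, 8.09 and 11.02 to 16.7, 33.5 and 21.7 CPM (log2 fold change 1.32, SE 0.25, adjusted p = 0.020). The cyclic AMP phosphodiesterase genes Pde4a (-0.53) and Pde4d (-0.46) fell, and so did Prkaca, the catalytic subunit of protein kinase A, from 328, 337 and 330.1 to 279.9, 277 and 253 CPM (log2 fold change -0.30, SE 0.07, adjusted p = 0.0405). All 5 calls were lost without Ctrl replicate 2, without Ctrl replicate 3, without Ctrl_HF replicate 3 and with the 6 libraries alone. Arrb1, β-arrestin that silences these receptors, named after its values were seen, rose from 43.3, 37.8 and 41.5 to 66.5, 56.6 and 51.9 CPM (log2 fold change 0.51, SE 0.11, adjusted p = 0.0273).

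Receptors of TGF-β rose, together with 1 of its ligands. In the TGF-β and BMP pathway 4 of 50 genes rose and 1 fell. Among the ligands Tgfb2 rose (1.27, adjusted p = 0.0068, stable), while Tgfb1 and Tgfb3 had log2 fold changes of 0.12 and 0.14 (adjusted p = 0.737 and 0.705). Both signalling receptors rose. Tgfbr1 was at 36.3, 29.3 and 32.7 CPM in Ctrl and 49.8, 60.2 and 51.7 CPM in Ctrl_HF (log2 fold change 0.72, SE 0.12, adjusted p = 0.0122), and Tgfbr2 at 77.5, 76.1 and 88.6 CPM in Ctrl and 98.7, 128 and 118 CPM in Ctrl_HF (log2 fold change 0.51, SE 0.11, adjusted p = 0.0273). Ltbp1, which stores the latent ligand in the matrix, fell from 109, 102 and 109.7 to 82.02, 76.04 and 75.8 CPM (log2 fold change -0.46, SE 0.08, adjusted p = 0.0158). Without Ctrl replicate 2 the 5 calls of the list fell to 1.

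In the insulin list 4 of 41 genes fell and 1 rose. Grb14, an adaptor that restrains the insulin receptor, was at 213, 206 and 209.6 CPM in Ctrl and 161, 102 and 132 CPM in Ctrl_HF (log2 fold change -0.67, SE 0.13, adjusted p = 0.0238), and Akt1, the kinase downstream of it, at 174, 187 and 191 CPM in Ctrl and 115, 149 and 109 CPM in Ctrl_HF (log2 fold change -0.56, SE 0.13, adjusted p = 0.0375). The receptor gene Insr was at 373, 394 and 389 CPM in Ctrl and 369.6, 415 and 388 CPM in Ctrl_HF (adjusted p = 0.914), and Irs1, its substrate, at 78.7, 73.3 and 62.3 CPM in Ctrl and 58.5, 29.5 and 37.1 CPM in Ctrl_HF (-0.78, adjusted p = 0.0799). All 5 calls were lost without Ctrl replicate 2, without Ctrl_HF replicate 3 and with the 6 libraries alone. Foxo6 (-2.04) and its antisense neighbour Foxo6os (-1.55) fell together, but whether strand was used in counting is not stated, so their reads cannot be told apart.

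Of 22 glucocorticoid targets 4 rose and 1 fell. Fkbp5, the co-chaperone that dampens the glucocorticoid receptor, was at 30.4, 46.4 and 24.3 CPM in Ctrl and 92.02, 89.9 and 173 CPM in Ctrl_HF (log2 fold change 1.81, SE 0.34, adjusted p = 0.0316), with Ctrl_HF replicate 3 highest. Cdkn1a, the cell cycle inhibitor p21, was at 65.3, 25.5 and 31.5 CPM in Ctrl and 128, 126 and 115 CPM in Ctrl_HF (log2 fold change 1.59, SE 0.31, adjusted p = 0.037). Fkbp4, the co-chaperone that aids the receptor, fell from 317, 363 and 372 to 269.6, 284 and 274 CPM (log2 fold change -0.35, SE 0.08, adjusted p = 0.0327). Tsc22d3 and Zbtb16, other genes induced by glucocorticoids, had adjusted p of 0.225 and 0.358 and did not pass. Of the 5 calls, the one of Pdk4, a kinase that blocks pyruvate dehydrogenase, was the 1 left without Ctrl replicate 2, without Ctrl replicate 3 and with the 6 libraries alone.

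Of 24 circadian clock genes 3 fell and 0 rose, 14 were higher than chow, and the median was 0.05. In the list 7 genes lay apart downward (29.2%) against 1 upward (4.17%). Dbp, a factor that the clock drives and that in turn drives rhythmic enzymes, was at 42.6, 79.2 and 63.7 CPM in Ctrl and 17.8, 19.7 and 24.9 CPM in Ctrl_HF (log2 fold change -1.57, SE 0.23, adjusted p = 0.0103, stable). Per3, a repressor of the clock, was at 15.8, 25.99 and 17.7 CPM in Ctrl and 8.49, 8.77 and 11.5 CPM in Ctrl_HF (log2 fold change -1.04, SE 0.20, adjusted p = 0.0199), and Nr1d2, a nuclear receptor of the stabilising loop, at 148, 171 and 149 CPM in Ctrl and 118, 80.1 and 109.6 CPM in Ctrl_HF (log2 fold change -0.61, SE 0.14, adjusted p = 0.0363). In all 3 genes every model library lay below every chow library, and 1 call was left without Ctrl replicate 2, without Ctrl_HF replicate 2 and with the 6 libraries alone. Arntl, the core activator, was at 12.5, 2.66 and 3.63 CPM in Ctrl and 18.8, 9.94 and 6.37 CPM in Ctrl_HF (adjusted p = 0.51), and the groups overlapped. Nr1d1 was at 90.1, 76.1 and 54.8 CPM in Ctrl and 47.1, 37.6 and 35.5 CPM in Ctrl_HF (-0.88, adjusted p = 0.335) and also lay apart downward. The hour of tissue collection is not given in the labels.

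The promoter of Per3 is shown because it held a pair of D boxes, the motif that Dbp and its relatives bind, searched as TTATGNAA on both strands.

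Per3: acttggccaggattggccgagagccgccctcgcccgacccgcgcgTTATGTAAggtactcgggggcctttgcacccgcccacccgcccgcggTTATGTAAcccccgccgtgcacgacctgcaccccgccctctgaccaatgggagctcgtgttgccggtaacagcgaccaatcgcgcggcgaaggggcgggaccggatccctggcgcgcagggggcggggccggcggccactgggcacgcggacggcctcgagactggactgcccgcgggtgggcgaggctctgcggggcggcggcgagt

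The window is chr4:151044616-151044915 on the minus strand of GRCm38.p6, from RefSeq, with 250 bases before and 50 after the start, and the capitals mark the matches, at 205 and 158 bases before the start. The motif was present in 2.01% of all windows, in 1 of the 3 windows of called clock genes and in 1 of the 26 windows of the clock genes that did not pass, that of Per1. The E box CACGTG, the site of the clock's activators, was in 9.74% of all windows and in 0 of the 3 called windows. It was in 6 of the 26 windows (23.1%) of the clock genes that did not pass.

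**Figure D3:**
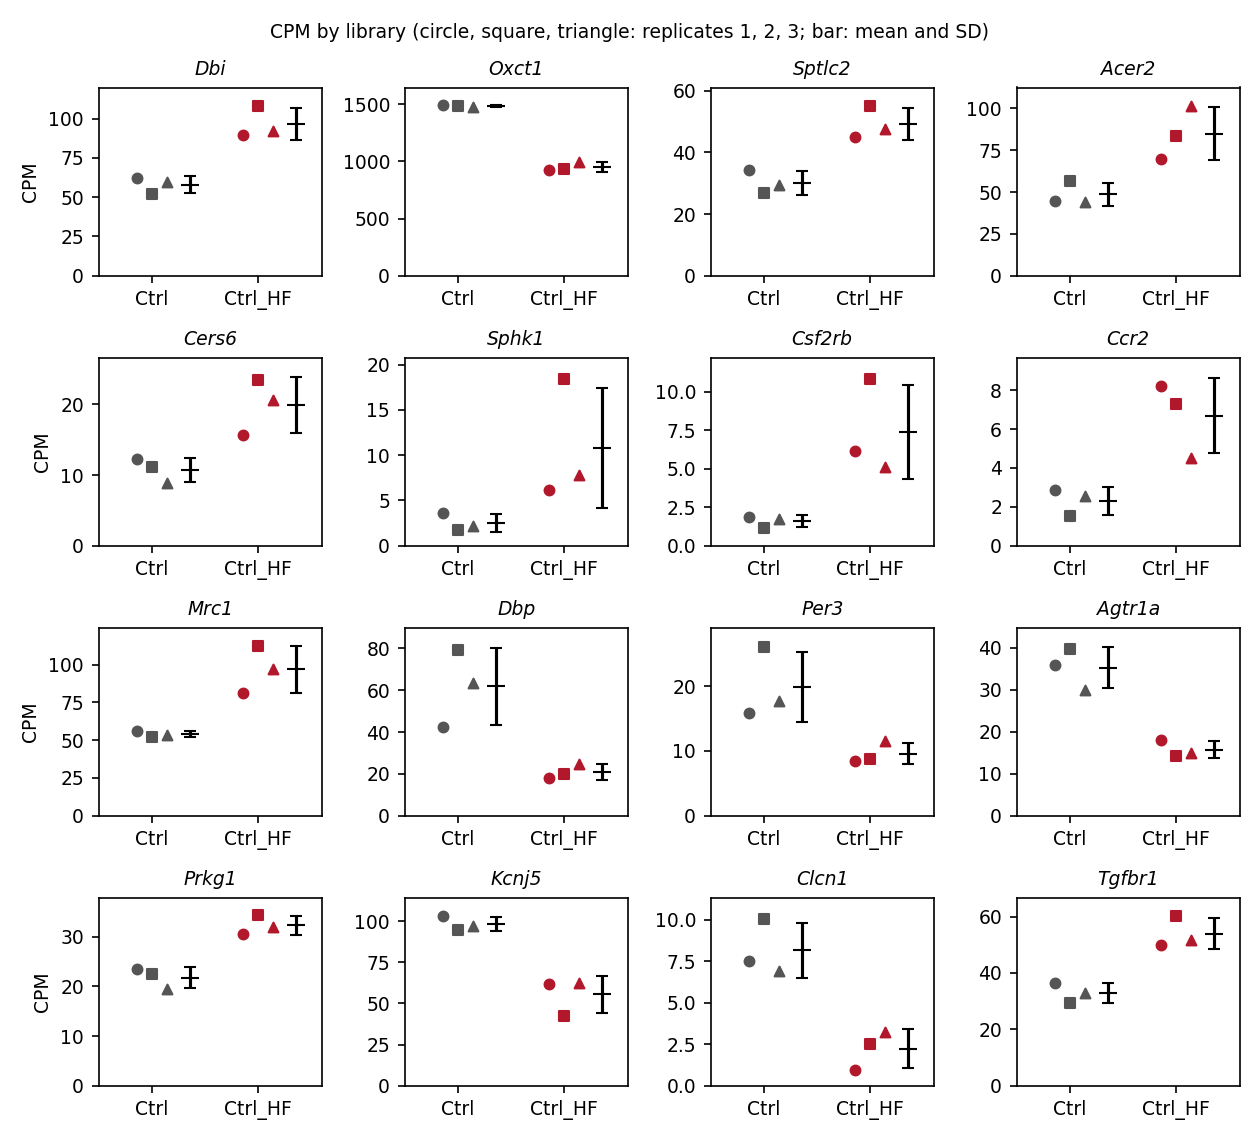
CPM of 16 genes described in the text, by library, with circle, square and triangle for replicates 1, 2 and 3, and a bar for mean ± SD (n = 3). In each panel the Ctrl_HF points lie wholly above or wholly below the Ctrl points, and for Sphk1 and Csf2rb the square, Ctrl_HF replicate 2, stands highest.

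Potassium channel genes held the largest share of fallers of any list, little ahead of working cardiomyocyte markers (15%) and glycolysis genes (14.3%). Of 44 tested genes 7 fell (15.9%) and 0 rose, 13 lay apart downward (29.5%) and 2 upward, and the median was -0.17. Kcnj5, a subunit of the acetylcholine-gated channel, was at 103, 94.6 and 97.1 CPM in Ctrl and 61.8, 42.5 and 62.4 CPM in Ctrl_HF (log2 fold change -0.82, SE 0.13, adjusted p = 0.012, stable). Abcc9, the sulfonylurea receptor of the ATP-sensitive channel, was at 825, 796 and 699 CPM in Ctrl and 542, 506 and 540.2 CPM in Ctrl_HF (log2 fold change -0.55, SE 0.08, adjusted p = 0.0068, stable), and Kcnj11, its pore subunit, fell with it from 186, 184 and 184 to 161, 123 and 129 CPM (log2 fold change -0.42, SE 0.10, adjusted p = 0.0442). Kcng2, a silent subunit that modifies other channels, fell from 172, 172 and 181 to 139.7, 136 and 136 CPM (log2 fold change -0.35, SE 0.07, adjusted p = 0.0223). The other 3 were Kcnip2, Kcnh2 and Kcnq1, subunits that shape repolarisation. Kcnj2, the main inward rectifier, was at 79.6, 124 and 136 CPM in Ctrl and 81.3, 55.7 and 84.2 CPM in Ctrl_HF (-0.62, adjusted p = 0.14). At least 4 of the 44 genes passed with any 1 library left out, and 5 with the 6 libraries alone. Over the 20 working cardiomyocyte markers, measured in the same libraries, 3 fell and 1 rose, and the median was -0.21. Of these markers 9 lay apart downward (45%) and 1 upward. Their summed level ranged from 134100.0 to 147500.0 CPM in Ctrl and from 125000.0 to 126300.0 CPM in Ctrl_HF. Pericyte markers, of which Abcc9 is 1, were lower as well. The part of both cell types in the lower channel genes was not tested.

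Of 65 sodium, calcium, chloride and other channel genes 4 fell and 1 rose, with a median of -0.07. Clcn1, the chloride channel that steadies the muscle membrane, was at 7.54, 10.1 and 6.92 CPM in Ctrl and 0.959, 2.49 and 3.24 CPM in Ctrl_HF (log2 fold change -1.85, SE 0.35, adjusted p = 0.021). Scn4a, the sodium channel of skeletal muscle, was at 60.8, 80.2 and 84.2 CPM in Ctrl and 51.8, 40.6 and 33.4 CPM in Ctrl_HF (log2 fold change -0.84, SE 0.17, adjusted p = 0.0287), and Cacna2d2, a calcium channel subunit, at 6.67, 5.78 and 5.28 CPM in Ctrl and 2.33, 3.07 and 3.13 CPM in Ctrl_HF (log2 fold change -1.05, SE 0.24, adjusted p = 0.0375). P2rx5, a cation channel opened by ATP, rose from 14.8, 16.5 and 20.6 to 23.1, 35.5 and 31.4 CPM (log2 fold change 0.79, SE 0.17, adjusted p = 0.0307), and Chrna2, a nicotinic receptor subunit outside the lists, from 1.98, 2.42 and 1.17 to 9.45, 7.17 and 7.88 CPM (log2 fold change 2.13, SE 0.31, adjusted p = 0.0080, stable). Cacna1c, the pore of the L-type calcium channel, was at 724, 722 and 658 CPM in Ctrl and 619.9, 498 and 538 CPM in Ctrl_HF (-0.34, adjusted p = 0.0733). The 5 calls of this list were lost without Ctrl replicate 2 and with the 6 libraries alone.

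Of 38 Z disc and myofibril genes 4 fell and 1 rose, among them Ky and Ankrd1. The list as a whole leaned upward, with a median of 0.16, 27 genes higher than chow, 10 apart upward (26.3%) and 5 apart downward (13.2%). Its summed level was 23520.0 to 25300.0 CPM in Ctrl and 25360.0 to 37690.0 CPM in Ctrl_HF. Lmod3, which nucleates actin filaments, fell from 78.5, 100.1 and 95.4 to 61.5, 54.2 and 59.1 CPM (log2 fold change -0.65, SE 0.10, adjusted p = 0.0104). Fhl2, a LIM protein of the Z disc and nucleus, fell from 1543, 1551 and 1746 to 1148, 958 and 1144 CPM (log2 fold change -0.57, SE 0.09, adjusted p = 0.0106, stable), and in the actin list Fhod3, a formin of the sarcomere, from 460.1, 522 and 478 to 390.5, 363 and 334 CPM (log2 fold change -0.43, SE 0.08, adjusted p = 0.0213). Among 22 intercalated disc genes 2 fell and 1 rose, Nrap, a scaffold of myofibril assembly, from 1438, 1397 and 1449 to 1854, 2993 and 2194 CPM (log2 fold change 0.72, SE 0.14, adjusted p = 0.0281). Among 23 muscle ubiquitin ligases Asb15 (-0.48), Fbxl22 (-0.53) and Asb11 (-0.43) fell and 0 rose, and these 3 calls were lost when any 1 Ctrl library was left out, without Ctrl_HF replicate 2 or 3, without TTg_HF replicate 2, and with the 6 libraries alone. Mylk4, a myosin light chain kinase, was at 193, 288 and 181 CPM in Ctrl and 72.98, 60.7 and 45.6 CPM in Ctrl_HF (log2 fold change -1.88, SE 0.26, adjusted p = 0.012, stable), and Ppp1r14c, an inhibitor of the opposing phosphatase, fell from 186, 136 and 131 to 92.2, 88.03 and 94.99 CPM (log2 fold change -0.72, SE 0.12, adjusted p = 0.0131).

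A few single regulators of transcription and splicing fell as well. Myocd, the coactivator of serum response factor, was at 191, 144 and 146 CPM in Ctrl and 92.97, 91.5 and 73.4 CPM in Ctrl_HF (log2 fold change -0.90, SE 0.13, adjusted p = 0.0086, stable), and Irx4, a homeobox factor of the ventricle, at 32.4, 29.8 and 29.4 CPM in Ctrl and 17.5, 19.2 and 23.4 CPM in Ctrl_HF (log2 fold change -0.60, SE 0.13, adjusted p = 0.0285). Rbfox1, a splicing factor of muscle, fell from 48.6, 52.2 and 50.8 to 34.1, 21.9 and 25.4 CPM (log2 fold change -0.90, SE 0.14, adjusted p = 0.00996, stable). Tet1, which oxidises methylated cytosine, was at 14.3, 22.5 and 23.3 CPM in Ctrl and 4.11, 5.41 and 9.96 CPM in Ctrl_HF (log2 fold change -1.61, SE 0.30, adjusted p = 0.0233). The groups stayed apart in these 4 genes. Among 26 cardiac transcription factors 2 fell (7.69%), Myocd and Irx4, and 0 rose. In all 2 of 73 chromatin modifiers fell (2.74%), Tet1 and Hdac9, and 2 of 87 spliceosome genes (2.3%), Rbfox1 and Lsm3. Both shares were near the 1.82% of all genes, and the spliceosome list had a median of 0.07.

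Genes that trim the matrix passed the test in both directions. Of 55 metalloproteinase and inhibitor genes 4 rose and 3 fell, and 16 lay apart upward (29.1%) against 5 downward (9.09%). Other matrix lists held risers only. Of 36 elastic fibre and crosslinking genes 4 rose and 0 fell, with 13 apart upward (36.1%) against 1 downward (2.78%) and a median of 0.35. Of 21 collagen genes outside the basement membrane 2 rose and 0 fell, with 7 apart upward (33.3%) against 1 downward (4.76%) and a median of 0.38. Adam9, a membrane sheddase, rose from 71.7, 66.5 and 71.9 to 89.8, 102 and 102 CPM (log2 fold change 0.49, SE 0.08, adjusted p = 0.0126), and Adamts2, which trims procollagen, from 29.3, 22.3 and 25.2 to 36.01, 40.6 and 48.9 CPM (log2 fold change 0.71, SE 0.14, adjusted p = 0.0221). Mmp15, a membrane metalloproteinase, fell from 125, 121 and 134 to 91.1, 65.5 and 72.98 CPM (log2 fold change -0.73, SE 0.13, adjusted p = 0.014), and Adamts7, a secreted metalloproteinase, from 33.6, 37.5 and 35.8 to 17.7, 13.9 and 23.9 CPM (log2 fold change -0.94, SE 0.18, adjusted p = 0.0215). Mgp, matrix Gla protein, an inhibitor of calcification, was at 64.1, 78.1 and 70.0 CPM in Ctrl and 111, 196 and 188 CPM in Ctrl_HF (log2 fold change 1.22, SE 0.22, adjusted p = 0.0221). Extl2, a glycosyltransferase that limits heparan sulfate chains, fell from 19.9, 19.3 and 19.8 to 10.7, 9.21 and 9.73 CPM (log2 fold change -0.99, SE 0.12, adjusted p = 0.00484, stable). The 7 metalloproteinase calls were lost without Ctrl replicate 2 and 1 was left without Ctrl replicate 3 or Ctrl_HF replicate 3.

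Several receptors of myeloid cells rose, from low levels. Of 36 genes of chemokines and adhesion 8 rose (22.2%) and 1 fell, with a median of 0.77. Ccr2, the receptor that draws monocytes, was at 2.84, 1.5 and 2.58 CPM in Ctrl and 8.22, 7.31 and 4.52 CPM in Ctrl_HF (log2 fold change 1.52, SE 0.33, adjusted p = 0.0303). Ccr1, a further chemokine receptor, was at 1.61, 1.85 and 0.938 CPM in Ctrl and 2.88, 5.12 and 4.4 CPM in Ctrl_HF (log2 fold change 1.49, SE 0.34, adjusted p = 0.0387). At these levels 1 count was worth up to 0.148 CPM, so the lowest chow values rest on few counts. Vcam1, an endothelial adhesion molecule, was at 15.1, 12.2 and 13.5 CPM in Ctrl and 23.6, 26.03 and 20.5 CPM in Ctrl_HF (log2 fold change 0.78, SE 0.16, adjusted p = 0.0281), and Icam1, a ligand of leukocyte integrins, rose from 17.7, 12.6 and 17 to 31.5, 34.8 and 20.3 CPM (log2 fold change 0.87, SE 0.20, adjusted p = 0.038). Jam2, a junction protein of endothelium, fell from 193, 198 and 182 to 134, 133 and 159 CPM (log2 fold change -0.43, SE 0.09, adjusted p = 0.0269). The 9 calls of this list were lost without Ctrl replicate 2 and with the 6 libraries alone.

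Outside the lists, further genes known from myeloid cells were named after their values were seen. Csf2rb, the shared receptor chain for IL-3, IL-5 and GM-CSF, was at 1.85, 1.16 and 1.76 CPM in Ctrl and 6.16, 10.8 and 5.1 CPM in Ctrl_HF (log2 fold change 2.19, SE 0.33, adjusted p = 0.0086, stable), and its near-identical copy Csf2rb2 also rose (2.25), so that reads may be shared between them. Msr1, the macrophage scavenger receptor, was at 5.19, 2.31 and 3.87 CPM in Ctrl and 6.71, 20.03 and 12.6 CPM in Ctrl_HF (log2 fold change 1.79, SE 0.41, adjusted p = 0.0459). Fcer1g, the signalling chain of Fc receptors, was at 2.72, 2.08 and 2.58 CPM in Ctrl and 5.75, 7.31 and 5.33 CPM in Ctrl_HF (log2 fold change 1.31, SE 0.23, adjusted p = 0.0153), and Fcgr3, an IgG receptor, at 5.07, 5.66 and 5.04 CPM in Ctrl and 12.2, 9.51 and 9.73 CPM in Ctrl_HF (log2 fold change 0.99, SE 0.19, adjusted p = 0.0229). The lowest model value exceeded the highest chow value in each. Ms4a6c (1.38), the leukocyte tetraspanin Cd53 (1.13), the leukotriene receptor Cysltr1 (1.4) and the RNA sensor Tlr8 (1.19) rose as well.

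Marker lists of cell types give the setting of these values. Among 22 resident macrophage markers 2 rose, Mrc1, the mannose receptor, from 56.4, 52.3 and 53.1 to 81.2, 112 and 97.1 CPM (log2 fold change 0.84, SE 0.11, adjusted p = 0.0068, stable), and C1qb, a complement subunit, from 27.4, 23.2 and 26.1 to 42.7, 40.4 and 35.2 CPM (log2 fold change 0.62, SE 0.12, adjusted p = 0.0221), with a median of 0.27. Their summed level ranged from 621.0 to 679 CPM in Ctrl and from 735 to 817 CPM in Ctrl_HF. Among 15 tested markers of recruited monocytes and macrophages 2 rose, Ccr2 and Spp1, osteopontin (3.06, adjusted p = 0.021), with a median of 0.86 and sums of 229.5 to 321 and 295 to 513 CPM, which overlap. Of 18 neutrophil markers 12 were too low to be tested, among them Ly6g, Camp and Cxcr2, and 1 rose, Lcn2, a secreted iron-scavenging protein that other stressed cells make as well. The tested sum was 9.12 to 16.4 CPM in Ctrl and 23.6 to 56.2 CPM in Ctrl_HF, and Lcn2 alone was at 1.85, 2.31 and 2.35 CPM in Ctrl and 6.16, 40.6 and 38.8 CPM in Ctrl_HF (log2 fold change 3.71, SE 0.74, adjusted p = 0.0412). All 17 markers of T and natural killer cells were too low to be tested. The part of a change in cell numbers in the myeloid genes was not tested.

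Markers of the other cell types gave few calls. Of 20 pan-endothelial markers 0 passed, with a median of 0.26 and sums of 1839 to 2128 and 2134 to 2269 CPM, and Pecam1 was at 158, 159.6 and 189.7 CPM in Ctrl and 199, 226 and 204 CPM in Ctrl_HF (adjusted p = 0.0949). In that list 16 genes were higher than chow, 7 lay apart upward (35%, against 11.5% of all genes) and 0 downward, and the sums did not overlap. Of 14 capillary markers 0 passed, with a median of 0.08, 8 higher than chow and 6 lower. Their sums of 3096 to 3299 CPM in Ctrl and 3595 to 4448 CPM in Ctrl_HF did not overlap. Of 20 fibroblast markers 1 rose, Medag, with a median of 0.34 and sums of 2881 to 2998 and 3245 to 4270.0 CPM, which did not overlap. Among these markers 19 were higher than chow, 7 lay apart upward (35%) and 0 downward. Among mural cells 1 of 12 pericyte markers fell, Abcc9, which cardiomyocytes also express. In that list 10 genes were lower than chow and 3 lay apart downward (25%), and the sums of 1588 to 1816 CPM in Ctrl and 1348 to 1496 CPM in Ctrl_HF did not overlap. Of 9 erythroid markers 0 passed and 4 lay apart upward (44.4%), with a median of 0.65, and the sums of 589 to 813 CPM in Ctrl and 912 to 1077 CPM in Ctrl_HF did not overlap. The part of blood cells in the myeloid and neutrophil genes was not tested. In the smooth muscle list Des, the intermediate filament protein that cardiomyocytes share, rose and Smtn, smoothelin, fell.

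Of 21 tested genes of coagulation and fibrinolysis 4 rose (19%) and 0 fell. In the list 9 genes lay apart upward (42.9%) and 1 downward (4.76%), 4 were lower than chow, and the median was 0.39. Pros1, protein S, a cofactor that inactivates clotting factors and also a ligand for engulfment receptors, was at 24.4, 24.02 and 27.6 CPM in Ctrl and 39.3, 51.3 and 46.5 CPM in Ctrl_HF (log2 fold change 0.85, SE 0.12, adjusted p = 0.0068, stable). Thbd, thrombomodulin, which turns thrombin into an activator of protein C, was at 139, 94.9 and 99.8 CPM in Ctrl and 174, 324 and 249.9 CPM in Ctrl_HF (log2 fold change 1.16, SE 0.22, adjusted p = 0.0274). Plat, tissue plasminogen activator, was at 16.4, 10.97 and 13.2 CPM in Ctrl and 23.4, 25 and 23.4 CPM in Ctrl_HF (log2 fold change 0.82, SE 0.15, adjusted p = 0.0166), and S100a10, its docking partner on the cell surface, rose from 29.5, 22.1 and 23.8 to 33.7, 41.1 and 41.9 CPM (log2 fold change 0.63, SE 0.14, adjusted p = 0.0348). Without Ctrl replicate 2 or 3, without Ctrl_HF replicate 3, or with the 6 libraries alone, 1 of the 4 calls was left.

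Nuclear-encoded mitochondrial lists had medians slightly below chow. Of 21 citric acid cycle genes 1 fell, Pcx, and 15 lay apart downward (71.4%, against 11.8% of all genes), with a median of -0.15. Of 45 complex I genes 0 passed and 15 lay apart downward (33.3%), with a median of -0.11. Of 19 ATP synthase genes 1 fell and 9 lay apart downward (47.4%). Of 78 mitochondrial ribosomal protein genes 2 fell, Mrpl42 (-0.41) and Mrpl34 (-0.37), and 16 lay apart downward (20.5%). The 13 transcripts of the mitochondrial genome had a median of 0.11, and 0 passed or lay apart. Summed working cardiomyocyte markers were lower in the same libraries, as given above.

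Lists of protein synthesis had medians above chow. Of 82 cytosolic ribosomal protein genes 0 passed and 21 lay apart upward (25.6%, against 11.5% of all genes), with a median of 0.20. Of the 82 genes 61 were highest in Ctrl_HF replicate 2 and 53 lowest in Ctrl replicate 1, and the median log2 ratios to chow were 0.15, 0.31 and 0.11 in Ctrl_HF replicates 1, 2 and 3. The summed level of Ctrl_HF replicate 3, 8495 CPM, lay below that of Ctrl replicate 3, 8765 CPM. Among 67 translation factors 2 rose, Eef1a1, which brings tRNA to the ribosome, from 449, 441 and 470.5 to 621, 647 and 560.1 CPM (log2 fold change 0.42, SE 0.07, adjusted p = 0.0122), and Eif5, which triggers subunit joining, from 112, 108 and 104 to 147, 216 and 213 CPM (log2 fold change 0.83, SE 0.14, adjusted p = 0.012). Npm1, the nucleolar chaperone, was the 1 riser of 48 ribosome biogenesis genes (0.46, adjusted p = 0.0403). The proteasome (1 of 48), endosome (0 of 71), glycosylation (0 of 47) and nuclear pore (1 of 48) lists held shares of called genes near the background. In autophagy Gabarapl1, which coats autophagosomes, rose from 68.8, 85.5 and 93.5 to 149.5, 134 and 131 CPM (log2 fold change 0.74, SE 0.11, adjusted p = 0.0086, stable), and Ulk1, the initiating kinase, was at 101, 128 and 128 CPM in Ctrl and 90.8, 94.3 and 78.7 CPM in Ctrl_HF (log2 fold change -0.44, SE 0.11, adjusted p = 0.0499). In the lysosome 2 of 40 hydrolases rose, Ctsz (0.56) and Lgmn (0.51), proteases that macrophages carry at high level. Ctsk, a collagen-cleaving protease, was at 0, 0.116 and 0.117 CPM in Ctrl and 3.7, 1.9 and 2.9 CPM in Ctrl_HF, where each chow value rests on 0 or 1 counts, and it did not pass (adjusted p = 0.234).

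**Figure D4:**
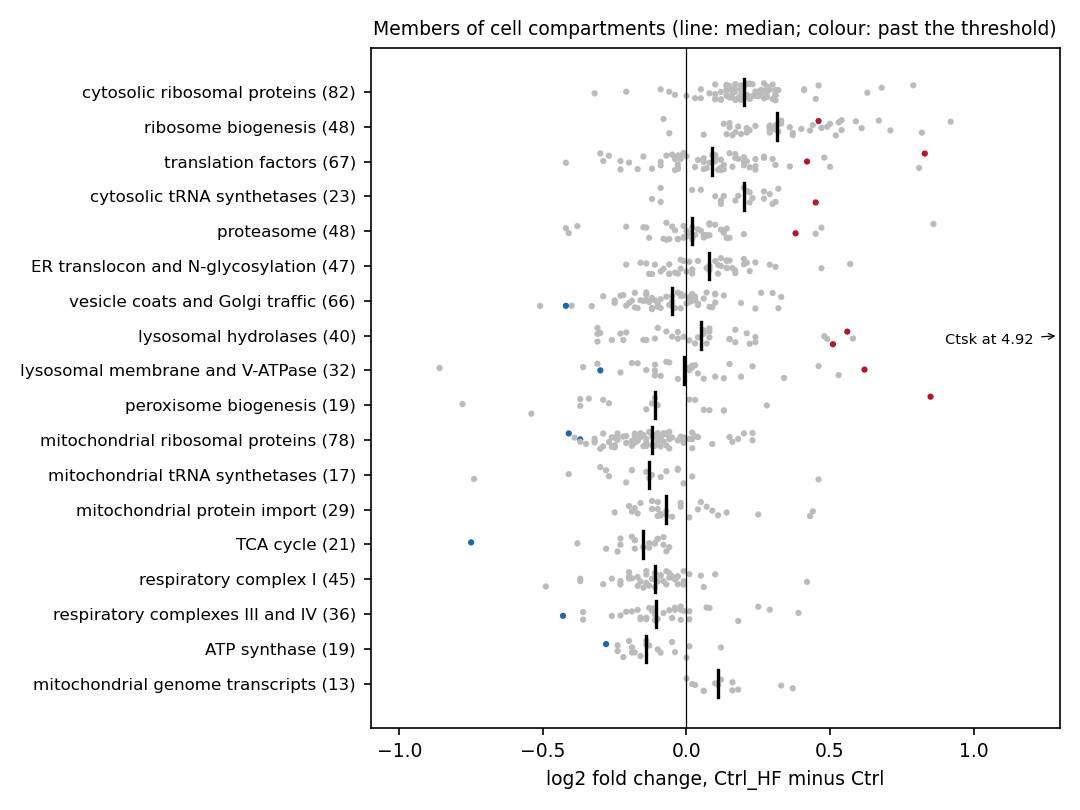
Each dot is 1 tested gene of a cell compartment, with its log2 fold change, Ctrl_HF minus Ctrl, on the x axis, and the black line is the list's median. Coloured dots passed the test. The nuclear-encoded mitochondrial lists lie slightly left of 0, with medians of -0.07 to -0.15, and the cytosolic ribosome and ribosome biogenesis lists to the right, at 0.20 and 0.31. Ctsk lies outside the axis at 4.92, a value that depends on the prior count since chow held 0 or 1 counts.

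Beside these shared changes, each model library stood out in groups of genes of its own, which are given as a description with no test. In Ctrl_HF replicate 1, antigen presentation and interferon genes were high: 52 of 63 tested members had their highest value of the 6 libraries there, while 2125 of all 12670 genes did. The list's median log2 ratio to chow was 1.09, -0.24 and -0.05 in replicates 1, 2 and 3. H2-Ab1, a chain of MHC class II, was at 13.3, 7.74 and 11.4 CPM in Ctrl and 41.4, 14.8 and 5.91 CPM in Ctrl_HF, and B2m, the light chain of MHC class I, at 57.1, 52.8 and 79.96 CPM in Ctrl and 172, 43.1 and 48.2 CPM in Ctrl_HF. Neither passed (adjusted p = 0.456 and 0.676). Oas2, an RNA sensor induced by interferon, rose in all 3, from 6.8, 4.74 and 5.75 to 13.01, 10.5 and 14.6 CPM (log2 fold change 1.15, SE 0.18, adjusted p = 0.00996), and Ifitm3, which blocks viral entry, from 33, 37.4 and 46.7 to 61.8, 77.2 and 53.9 CPM (log2 fold change 0.72, SE 0.16, adjusted p = 0.0347).

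In Ctrl_HF replicate 2, genes of ribosome building and protein folding were high. Of 48 ribosome biogenesis genes 46 and of 29 heat shock chaperones 21 had their highest value there, against 3169 of all genes, with median log2 ratios of 0.61 and 0.62. The matrix and injury genes Tnc, at 0.989, 0.578 and 2.23 CPM in Ctrl and 2.19, 98.3 and 21.2 CPM in Ctrl_HF, and Timp1, at 1.24, 1.39 and 1.64 CPM in Ctrl and 2.05, 47.2 and 16.8 CPM in Ctrl_HF, were highest there as well, and did not pass (adjusted p = 0.11 and 0.0961). Angptl4, a secreted inhibitor of lipoprotein lipase, was at 1.85, 5.31 and 6.21 CPM in Ctrl and 7.39, 144 and 92.1 CPM in Ctrl_HF, high in replicates 2 and 3 and near chow in replicate 1 (4.17, adjusted p = 0.104).

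In Ctrl_HF replicate 3, immediate early genes, which cells switch on within minutes of a stimulus, were low. Of 30 genes 22 had their lowest value there, against 1773 of all genes, and the median log2 ratio was 0.43, 0.42 and -1.3 in replicates 1, 2 and 3. Fos was at 126, 95.2 and 148 CPM in Ctrl and 192, 232 and 19.1 CPM in Ctrl_HF, and Egr1 at 368, 391 and 514 CPM in Ctrl and 436, 406 and 79.3 CPM in Ctrl_HF. Chow libraries also differed in these genes, and 0 of 30 passed.

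**Figure D5:**
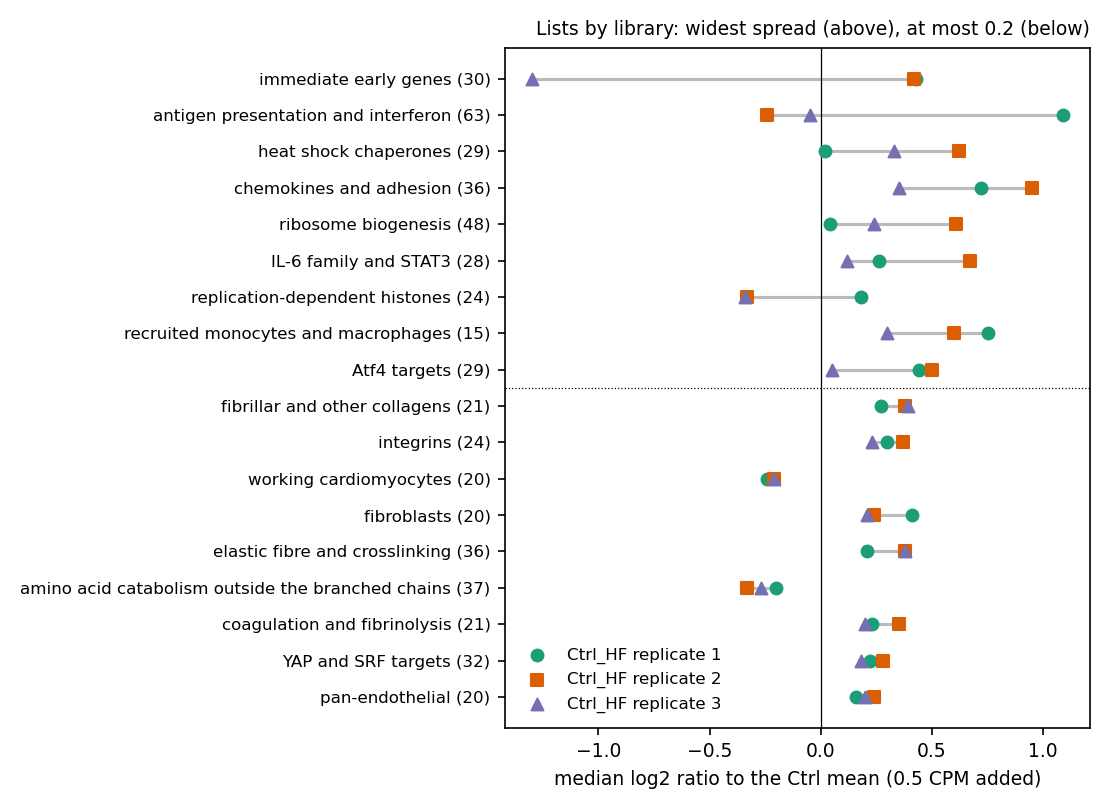
Median log2 ratio of a list's tested members to the Ctrl mean (0.5 CPM added), for Ctrl_HF replicates 1 (circle), 2 (square) and 3 (triangle). Above the dotted line are the 9 lists of at least 15 tested genes with the widest spread between libraries, such as immediate early genes (0.43, 0.42 and -1.3), and below it 9 lists that were on the same side of 0 in all 3 with a spread of at most 0.2, such as elastic fibre genes (0.21, 0.38 and 0.38).

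Among genes in none of the lists, large changes were spread over many functions. Gpr35, an orphan-type receptor, rose from 0.742, 0.578 and 0.469 to 2.74, 8.19 and 4.29 CPM (log2 fold change 3.05, SE 0.51, adjusted p = 0.0122). Tacc2, a centrosomal coiled-coil protein and the most abundant of the 15 largest rises, was at 222, 235 and 239 CPM in Ctrl and 498, 899 and 925 CPM in Ctrl_HF (log2 fold change 1.74, SE 0.21, adjusted p = 0.00834, stable). Mlf1, a myeloid leukaemia factor also expressed in muscle, was at 106, 113 and 91.2 CPM in Ctrl and 33.8, 39.04 and 30.2 CPM in Ctrl_HF (log2 fold change -1.59, SE 0.15, adjusted p = 0.00164, stable). Klhdc8a fell from 40.4, 30.1 and 39.04 to 9.17, 17.2 and 9.15 CPM (log2 fold change -1.63, SE 0.23, adjusted p = 0.0080, stable), Gpr22, an orphan receptor of the heart, from 8.16, 6.58 and 5.75 to 2.46, 2.34 and 2.32 CPM (log2 fold change -1.52, SE 0.24, adjusted p = 0.00996, stable), and Lgi1, a secreted protein best known from neurons, from 6.18, 6.81 and 5.98 to 2.6, 2.34 and 1.97 CPM (log2 fold change -1.46, SE 0.21, adjusted p = 0.0080, stable). In each of these genes, as in every called gene, the chow and model libraries lay wholly apart. Lrg1, a secreted glycoprotein that modifies TGF-β signalling in vessels, named after its values were seen, rose from 26.1, 22.4 and 25.3 to 44.2, 52.4 and 68.7 CPM (log2 fold change 1.17, SE 0.15, adjusted p = 0.00679, stable).

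The called genes lay on all 19 autosomes. Of the tested symbols 12356 (97.5%) matched 1 gene of GENCODE vM21. On the X chromosome 4 of 395 tested genes rose and 2 fell, and of the 13 mitochondrial transcripts 0 passed. By mean level, 2.46% rose and 3.03% fell in the upper tertile of level, against 1.3% and 0.9% in the lower tertile, where counts are fewest. Of 307 long noncoding RNAs 2 rose and 4 fell. The median exon length was 4083 bases for risers and 4507 for fallers, against 4611 for all tested genes.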

How the data were processed

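Ventricle RNA of 9 libraries was analysed, 3 per group. The authors deposited a table of raw counts per gene together with values divided by their size factors (a normalized signal) and transformed values on a log2 scale, per the file headers. The deposited factors and log2 values served only for checks and 1 alternative. Per the submitters' processing notes, mm10 was the build. Aligner, counter, annotation and strand setting were not given in the sources used here. Of 49585 rows, 29540 held no count, and 26 rows with date-like names cannot be tied to a gene. From the counts, 12670 genes passed edgeR's filterByExpr (minimum count 10, minimum total 15). They were fitted with TMM scaling and the robust quasi-likelihood test (edgeR 4.0.16, R 4.3.3) over all 9 libraries, with Benjamini-Hochberg adjustment and a threshold of 0.05. CPM are counts scaled to the TMM-adjusted totals, and log2 fold changes are fitted values with the default prior count of edgeR. Principal components used log2 CPM with a prior count of 2. Named genes were the 15 largest rises and 15 largest falls outside the lists with a mean of at least 1 CPM, up to 6 members of lowest p per list, and the 2 most abundant members of each list. Other genes were chosen after their values were seen. Some genes within the rule are not reported here. The lists and the comparison were chosen with earlier results of these data known. Alternatives used DESeq2 1.42.0 and limma 3.58.1, other scalings and filters, and left out each library in turn. The code was tested on simulated data.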

Additional observations from a re-analysis of the deposited data

How the results depend on the processing

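The number of genes past the threshold depended on which libraries were fitted. With Ctrl and Ctrl_HF alone it fell from 458 to 126 (58 higher, 68 lower), of which 122 were among the 458. Leaving out 1 library gave 85 (without Ctrl replicate 2) to 1122 (without Ctrl_HF replicate 1) genes in either direction, 28 to 660 higher and 57 to 462 lower, and 84 and 430 of the 458 were shared at these extremes. DESeq2 called 841 genes (460 higher, 381 lower), 453 of them shared. The other scalings, filters and fits gave 377 to 551 genes. Without TTg_HF replicate 1, 2 or 3, which are not in the comparison, 356, 224 and 304 genes passed. Counts of paired libraries of a group differed with a chi-square per degree of freedom of 15.7 to 24 within Ctrl_HF. The range was 5.78 to 13.7 within Ctrl and 4.55 to 8.37 within TTg_HF, so the shared estimate came from groups of unlike spread. The cause of these differences was not tested. No named gene that was called in the main fit or in the alternative reversed its direction, and reversals of genes called in neither were not counted. Of 290 called ones 202 lost the call in the fit of 6 libraries. Replicate numbers are shared between the groups, and the correlation of deviations within a number was 0.0267, -0.164 and 0.00989, so the numbers were not shown to pair libraries. The fit with a replicate block gave 415 genes (205 higher, 210 lower). With 3 libraries against 3, an exact permutation test of 1 gene cannot go below 0.1. At 7061412 to 8852515 counts a library, genes under about 1 CPM rest on few counts. In simulated data of 12670 genes 32.7% of 1.5-fold and 91.3% of 4-fold changes were recovered, with 6.04% of calls false. The simulation drew genes independently and with the same spread in all groups. The real libraries differed from it in both respects, so these shares need not hold for them.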

Other observations

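Gene groups that the report does not describe also held genes past the test. In the Wnt list 3 of 41 genes rose and 0 fell. They were the receptor gene Fzd1, from 14.2, 16.98 and 16.9 to 24.9, 29.7 and 22.4 CPM (log2 fold change 0.67, SE 0.13, adjusted p = 0.023), the secreted antagonist Frzb, from 11.99, 14.4 and 11.5 to 20.4, 30.7 and 26.5 CPM (log2 fold change 1.03, SE 0.21, adjusted p = 0.0269), and the ligand Wnt9b, from 1.73, 1.62 and 0.821 to 3.15, 3.51 and 4.17 CPM (log2 fold change 1.38, SE 0.32, adjusted p = 0.0403). In the list of Notch, ephrin and semaphorin genes 3 of 60 fell and 1 rose. Efnb3, an ephrin ligand, fell from 167, 156 and 159 to 104, 97.1 and 102 CPM (log2 fold change -0.67, SE 0.08, adjusted p = 0.00484) and passed under every alternative, and Ephb1, an ephrin receptor, fell from 36.95, 18.5 and 36.4 to 9.59, 15.9 and 13.3 CPM (log2 fold change -1.24, SE 0.28, adjusted p = 0.0459). Efna5, another ligand, rose from 24.4, 25.4 and 21.7 to 31.8, 39.9 and 45.4 CPM (log2 fold change 0.71, SE 0.14, adjusted p = 0.0214).

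Among 48 NF-κB and TNF genes 2 rose, the receptor genes Tnfrsf1a (0.78, adjusted p = 0.038) and Il1r1 (0.81, adjusted p = 0.0459). In that list 11 genes lay apart upward (22.9%) and 0 downward. In the IL-6 and STAT3 list 3 of 28 rose, and the acute-phase gene Serpina3n was at 5.93, 9.93 and 12.8 CPM in Ctrl and 31.6, 103 and 77.3 CPM in Ctrl_HF (log2 fold change 2.88, SE 0.46, adjusted p = 0.0219), although its reads may be shared with other members of the Serpina3 family. Fgf16, a growth factor of the heart, fell from 16.6, 17.6 and 17.7 to 8.9, 5.56 and 9.5 CPM (log2 fold change -1.1, SE 0.18, adjusted p = 0.0103), Gja3, a connexin, from 8.9, 8.55 and 8.56 to 5.2, 4.24 and 4.05 CPM (log2 fold change -0.95, SE 0.18, adjusted p = 0.0192), and Coq8a, a kinase-like protein of coenzyme Q synthesis, from 672, 630.0 and 586 to 486, 357 and 349 CPM (log2 fold change -0.66, SE 0.12, adjusted p = 0.0154). Cyp1b1, a cytochrome P450, rose from 10.01, 10.3 and 12.7 to 28.1, 31 and 26.4 CPM (log2 fold change 1.37, SE 0.15, adjusted p = 0.00342), and Fgf16 and Cyp1b1 passed under every alternative. Lclat1, which remodels cardiolipin and other phospholipids, fell from 273, 216 and 198 to 123, 146 and 136 CPM (log2 fold change -0.76, SE 0.12, adjusted p = 0.0086), also under every alternative.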
